A study of Homo sapiens with 8 samples.

Results

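The mitosis and spindle checkpoint genes are 40 genes that drive a human cell through mitosis, from entry and spindle assembly to the division of the cytoplasm. They were taken from a list of gene symbols, and each of the 40 had 1 named probe set among the 22458 named probe sets on the arrays. Levels were measured in Caco-2 clone TC7, an epithelial colon tumour cell line, on 8 expression arrays, with labelled cDNA made from total RNA. On 4 arrays the cells had received an expression plasmid for CRTC1, a coactivator of the transcription factor CREB, and on 4 the empty vector pBS. Both groups were subconfluent when transfected overnight with 200 ng of plasmid, and they differed by the labels only in the vector. The labels state no promoter for the plasmid and no share of transfected cells. They also do not say that the arrays of a group came from separate cultures, in which case p-values reflect only differences among the arrays in hand, possibly technical ones.

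Mitosis begins when the complex of cyclin B and the kinase CDK1 becomes active. Polo-like and Aurora kinases then build the spindle, and kinetochores attach each chromosome to it. The spindle checkpoint holds the anaphase-promoting complex (APC/C) inactive until every kinetochore is attached, after which the cyclins and securin are degraded and the cell divides. Most of these genes are silent in resting cells and reach their highest mRNA in G2 and mitosis, which makes them the usual transcript markers of dividing tumour cells, Caco-2 before confluence included.

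The deposited values are log2 expression values, so a difference of 1 is a doubling. Array medians over the named genes lay between 4.14 and 4.19. CRTC1 itself lay at 12.52, 11.78, 11.70 and 11.46 on CRTC1 replicates 1 to 4 and between 5.48 and 6.30 on the empty vector arrays. The epithelial markers EPCAM, CDH1 and VIL1 had mean levels of 10.3, 9.90 and 9.56 with empty vector. Of the 9 measured epithelial markers, KRT20 (3.35) and CDX1 (3.92) lay below the median of all named genes, 4.16, and KRT8 at 6.35. Means over the fibroblast, leukocyte and endothelial markers lay between 2.89 and 3.48 on the 8 arrays, also below that median. Single members lay above it with empty vector: the fibroblast markers COL1A1 (4.92) and THY1 (4.55) and the leukocyte marker TYROBP (4.31). The table holds no detection calls, so none of these markers can be called absent.

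The comparison asked whether mitotic transcripts differ between the CRTC1 and the empty vector cells. No mitosis gene passed at an adjusted p of 0.05 in limma over all 22458 genes, where 1 gene (0.00445% of those tested) did, CRTC1 itself. The 40 log2 changes were small, between -0.19 (BIRC5) and 0.10 (PRC1). Of the 40 genes 33 were lower and 7 higher with CRTC1, a share of 82.5% lower, where 51.4% of all named genes and 55.9% of those at or above the median level were lower. The median log2 change was -0.07 against -0.01 over all named genes and -0.02 over the brighter part. That part is not matched in level, with a mean of 6.54 with empty vector against 8.28 for the 40 genes. At limma's unadjusted p of 0.05 there was 1 lower and 0 higher mitosis gene, where 2.73% of all genes were lower and 3.2% higher. The adjusted p-values of the 40 ran from 0.837 to 1.

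The arrays bound these changes tightly. The 95% intervals of the 40 genes reached from -0.366 to 0.276 on the log2 scale, so all 40 excluded a 1.5-fold difference in either direction, against 84.2% of all named genes and 91.3% of the brighter ones. These intervals are per gene and not widened for the number of genes. They bound the average over a whole culture, whose share of transfected cells is not stated. A difference within the transfected cells alone could be larger. The residual spread between arrays of a group had a median SD of 0.0705 over the mitosis genes, 0.177 over all named genes and 0.138 over those at or above the median level. In RNA of a whole culture, fewer cells in mitosis and less of an mRNA per cell cannot be told apart, and a shift shared by most genes would be lost in the scaling of the values.

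**Figure D1:**
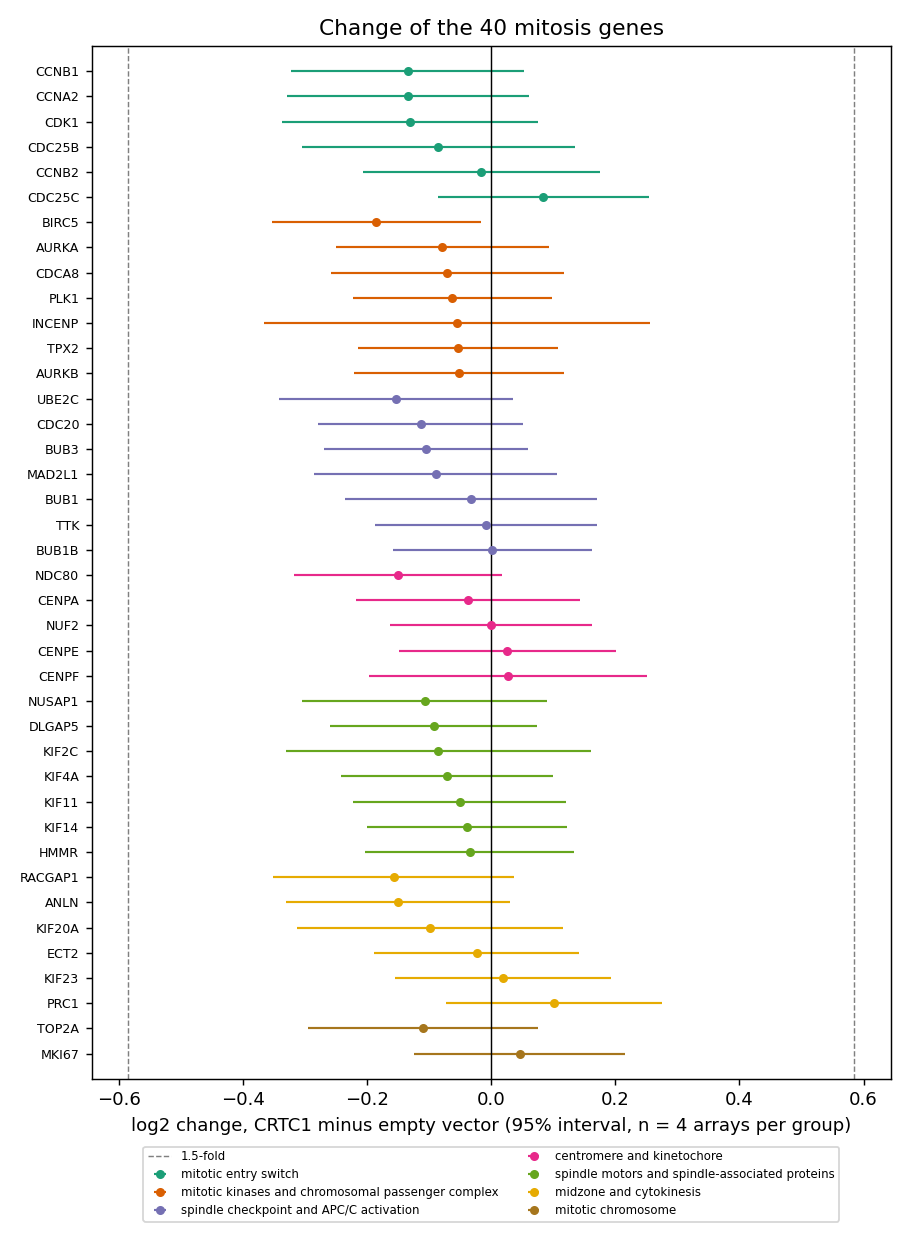
Log2 change with CRTC1 (horizontal axis, points) and its 95% interval (bars, n = 4 arrays per group) for each of the 40 genes, coloured by role; dashed lines mark 1.5-fold. All 40 intervals lie within the dashed lines, and that of BIRC5 is the 1 interval that leaves out 0.

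Mitotic genes are known to share promoter elements. The cell cycle genes homology region (CHR), bound by the DREAM and MuvB complexes, holds them silent in resting cells and raises them in G2, together with CCAAT boxes bound by NF-Y. CREB, the partner of CRTC1, binds the cAMP response element (CRE). RefSeq promoter windows (GRCh38.p14, 250 bases before to 50 after each transcription start) matched 33 of the 40 genes with 42 windows, since 5 genes had several starts and their windows can overlap. No window matched AURKA, BIRC5, BUB3, RACGAP1, TPX2, TTK or UBE2C.

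Searched on both strands, the CHR letters TTTGAA or TTCGAA stood in 30 of the 42 windows (71.4%), against 16.4% of all 35116 windows in the table. CCAAT stood in 31 of them (73.8%), against 34.6% of all windows. Both stood together in 25 (59.5%), against 6.38%. The windows below run from 130 bases before to 20 bases after the start and show the arrangement in the B-type cyclins, in PLK1, and in CDC20 and ANLN, whose levels did not overlap between the groups. Capitals mark CHR letters and CCAAT on either strand (TTCAAA and ATTGG on the reverse).
CCNB1 (chr5:69167020-69167169, + strand): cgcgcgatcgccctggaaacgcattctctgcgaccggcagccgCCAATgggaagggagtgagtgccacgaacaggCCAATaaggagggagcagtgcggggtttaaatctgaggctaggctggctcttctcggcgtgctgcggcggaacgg
CCNB2 (chr15:59105016-59105165, + strand): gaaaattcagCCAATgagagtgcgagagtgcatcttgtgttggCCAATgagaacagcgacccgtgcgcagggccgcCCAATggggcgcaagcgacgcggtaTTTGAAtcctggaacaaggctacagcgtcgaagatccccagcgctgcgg
PLK1 (chr16:23678759-23678908, + strand): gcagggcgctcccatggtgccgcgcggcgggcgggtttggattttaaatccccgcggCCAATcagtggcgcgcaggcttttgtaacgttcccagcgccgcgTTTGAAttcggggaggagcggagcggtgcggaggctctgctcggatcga
CDC20 (chr1:43358851-43359000, + strand): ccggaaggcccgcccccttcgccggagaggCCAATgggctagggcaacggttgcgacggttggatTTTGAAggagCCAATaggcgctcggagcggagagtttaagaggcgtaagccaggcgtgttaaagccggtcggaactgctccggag
ANLN (chr7:36389732-36389881, + strand): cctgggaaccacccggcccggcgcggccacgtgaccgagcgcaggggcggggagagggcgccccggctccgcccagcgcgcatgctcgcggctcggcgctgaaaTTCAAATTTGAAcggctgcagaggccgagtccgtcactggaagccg
In CCNB2 the CHR letters began 29 bases before the start, with CCAAT at 54, 87 and 120 bases before it. In PLK1 they also began 29 bases before the start, with a single CCAAT at 73. The CCNB1 window held CCAAT at 55 and 87 bases before the start and none of the CHR letters searched. The ANLN window held adjoining CHR letters on the 2 strands and no CCAAT. Over all 42 windows there were 42 CHR matches, with a median position 27 bases before the start, and 62 CCAAT matches, with a median 78.5 bases before it.

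**Figure D2:**
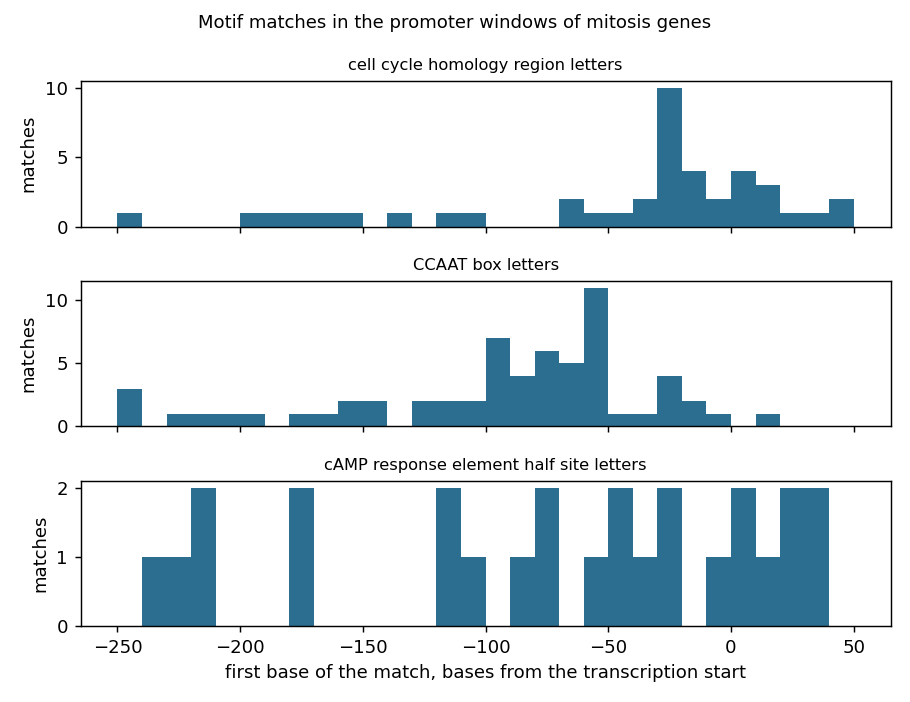
Number of matches (vertical axis, bins of 10 bases) by the position of their 5′ base relative to the transcription start (horizontal axis, bases) in the 42 promoter windows, for CHR letters, CCAAT and the CRE core TGACG. CHR matches gather around the start and CCAAT matches upstream of it, while the 26 matches to the CRE core are spread over the window.

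The full CRE, TGACGTCA, which reads the same on both strands, stood in 4 of the 42 windows (9.52%), against 1.85% of all windows, and its core TGACG, which every full CRE also contains, in 19 (45.2%), against 24.6%. The 4 genes are CCNA2, whose CRE is a known CREB site, PRC1, CENPE and NDC80. Their CRE is shown in capitals with 25 bases on either side.
CCNA2 (chr4:121823932-121823989, - strand): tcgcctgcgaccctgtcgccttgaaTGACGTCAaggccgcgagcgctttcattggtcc
PRC1 (chr15:90994680-90994737, - strand): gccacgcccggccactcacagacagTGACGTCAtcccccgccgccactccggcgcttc
CENPE (chr4:103198425-103198482, - strand): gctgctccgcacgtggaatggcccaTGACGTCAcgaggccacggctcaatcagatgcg
NDC80 (chr18:2571506-2571563, + strand): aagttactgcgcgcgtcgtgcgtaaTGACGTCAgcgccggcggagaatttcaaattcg
The 4 genes with a full CRE did not share a direction. Their log2 changes with CRTC1 were -0.13 for CCNA2, 0.10 for PRC1, 0.03 for CENPE and -0.15 for NDC80, with a median of -0.0542 against -0.0554 for the 29 genes without it. The 27 genes with CHR letters in a window had a median change of -0.051 and 21 were lower, while the 6 without had a median of -0.0919 and 5 were lower. A match is a description of letters and not evidence of binding in these cells.

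Among the genes of the mitotic entry switch, 5 of 6 were lower and 0 passed. CCNB1 (Entrez Gene 891), the mitotic cyclin that activates CDK1, lay at 10.17, 10.25, 10.36 and 10.38 on CRTC1 replicates 1 to 4 and at 10.43, 10.51, 10.32 and 10.44 on empty vector replicates 1 to 4. CRTC1 replicates 1 and 2 lay below all 4 controls and the others within their range, so the groups overlapped. Its log2 change was -0.13 with a 95% interval of -0.32 to 0.05 (limma adjusted p = 0.863). CCNA2, the cyclin of S phase and mitotic entry, lay at 9.45, 9.69, 9.70 and 9.67 with CRTC1 and at 9.81, 9.75, 9.67 and 9.83 with empty vector. CRTC1 replicate 1 stood well below the other 7 arrays, and the groups overlapped. The change was again -0.13 (interval -0.33 to 0.06). CDK1, the kinase both cyclins bind, lay at 8.02, 8.25, 8.26 and 8.31 with CRTC1 and at 8.25, 8.45, 8.28 and 8.38 with empty vector, with the same array lowest and the same change of -0.13 (interval -0.34 to 0.08). CCNB2, a second B-type cyclin, differed by only -0.02. Of the phosphatases that remove the inhibitory phosphates of CDK1, CDC25B had a change of -0.09 and CDC25C of 0.08.

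The mitotic kinases and the chromosomal passenger complex were lower in 7 of 7 genes, 1 of them at limma's unadjusted p of 0.05. BIRC5 (Entrez Gene 332) encodes survivin, the passenger subunit that brings the complex to the centromere and also inhibits apoptosis. Its level was 7.29, 7.37, 7.42 and 7.29 on CRTC1 replicates 1 to 4 and 7.56, 7.44, 7.54 and 7.57 on empty vector replicates 1 to 4. All CRTC1 arrays lay below all controls, and CRTC1 replicate 3 and empty vector replicate 2 were the nearest. The means were 7.34 ± 0.0639 and 7.53 ± 0.0579 (SD, n = 4). The log2 change was -0.19 (interval -0.35 to -0.02), a change of -12.1% on the linear scale. It did not pass (limma unadjusted p = 0.0341, adjusted p = 0.837; exact two-sided permutation p = 0.0286, the smallest that 4 against 4 arrays allow). The unadjusted p was above 0.05 without CRTC1 replicate 1, 2 or 4 or without empty vector replicate 1, 3 or 4, where it ran from 0.0510 to 0.0780, and it was 0.0574 with the replicate number as a block.

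The other passenger subunits had smaller differences than BIRC5. AURKB, the kinase of the complex, had a log2 change of -0.05, CDCA8 (borealin) of -0.07 and the scaffold INCENP of -0.06, the last with the widest interval of the 40 genes (-0.37 to 0.26). AURKA, the centrosomal Aurora kinase, lay at 8.47, 8.63, 8.50 and 8.50 with CRTC1 and at 8.57, 8.67, 8.54 and 8.64 with empty vector. CRTC1 replicate 2 lay among the controls and the other 3 lay below them, a change of -0.08 (interval -0.25 to 0.09). TPX2, which activates AURKA on spindle microtubules, had -0.05, and PLK1, which drives centrosome maturation and mitotic entry, had -0.06.

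Among the spindle checkpoint and APC/C activation genes, 6 of 7 were lower and 0 passed. UBE2C, the ubiquitin-conjugating enzyme of the APC/C, lay at 7.82, 7.73, 7.81 and 7.74 with CRTC1 and at 8.09, 7.87, 7.81 and 7.94 with empty vector. Its highest value, on empty vector replicate 1, stood apart from the other controls, and CRTC1 replicate 1 lay above empty vector replicate 3. The log2 change was -0.15 (interval -0.34 to 0.03). CDC20, the APC/C activator that the checkpoint sequesters, lay at 9.33, 9.47, 9.39 and 9.43 with CRTC1 and at 9.47, 9.57, 9.56 and 9.47 with empty vector. The groups did not overlap, but only narrowly, the nearest arrays being CRTC1 replicate 2 at 9.469 and replicate 1 of the empty vector at 9.471. Its change was -0.11 (interval -0.28 to 0.05).

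The genes of the checkpoint proteins themselves differed in size. BUB3, the adaptor that brings BUB1 and BUBR1 to kinetochores, had levels from 9.64 to 9.79 with CRTC1 and from 9.82 to 9.88 with empty vector, which did not overlap, and a log2 change of -0.10 (interval -0.27 to 0.06). MAD2L1, which encodes the MAD2 inhibitor of CDC20, had -0.09. BUB1B, which encodes BUBR1, lay at 8.23, 8.20, 8.22 and 8.30 with CRTC1 and at 8.23, 8.25, 8.18 and 8.29 with empty vector. The groups were interleaved, and the change was 0.0019 (interval -0.16 to 0.16). The kinase genes BUB1 (-0.03) and TTK (-0.01), which encodes MPS1, were close to 0 as well.

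Among the centromere and kinetochore genes 3 of 5 were lower, with a median change of -0.00029. NDC80, the kinetochore subunit that grips microtubules, lay at 7.38, 7.23, 7.31 and 7.35 with CRTC1 and at 7.53, 7.42, 7.42 and 7.50 with empty vector. The groups did not overlap, and the log2 change was -0.15 (interval -0.32 to 0.02, limma adjusted p = 0.838). NUF2, its partner in the same complex, had means of 8.01 in both groups and a change of -0.00029 (interval -0.16 to 0.16). CENPA, the histone H3 variant that marks centromeres, lay at 6.96, 6.97, 7.16 and 7.05 with CRTC1 and at 7.14, 7.04, 7.12 and 7.00 with empty vector, a change of -0.04 with overlapping groups. The kinetochore motor CENPE and the corona protein CENPF each had 0.03.

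The spindle motors and spindle-associated proteins were lower in 7 of 7 genes, between -0.11 and -0.03, and 0 passed. NUSAP1, which bundles spindle microtubules, lay at 8.47, 8.50, 8.46 and 8.62 with CRTC1 and at 8.54, 8.68, 8.50 and 8.76 with empty vector, a change of -0.11 with overlapping groups. DLGAP5, which stabilises kinetochore fibres, lay at 8.22, 8.33, 8.33 and 8.30 with CRTC1 and at 8.33, 8.47, 8.39 and 8.36 with empty vector. CRTC1 replicates 2 and 3 reached just past the lowest control, and the change was -0.09. The kinesin genes KIF2C, a microtubule depolymerase, and KIF4A, a chromosome motor, had -0.09 and -0.07. KIF11, which separates the spindle poles, and KIF14 had -0.05 and -0.04, and HMMR, which acts at the poles, -0.03.

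Among the midzone and cytokinesis genes 4 of 6 were lower. ANLN, which encodes the cleavage furrow scaffold anillin, lay at 8.38, 8.57, 8.60 and 8.45 with CRTC1 and at 8.68, 8.63, 8.68 and 8.60 with empty vector. The groups did not overlap, with CRTC1 replicate 3 just below empty vector replicate 4, and the log2 change was -0.15 (interval -0.33 to 0.03). RACGAP1, the GTPase-activating subunit of centralspindlin, lay at 7.25, 7.33, 7.40 and 7.34 with CRTC1 and at 7.33, 7.54, 7.62 and 7.46 with empty vector. Empty vector replicate 1 lay within the CRTC1 range, and the change was -0.16 (interval -0.35 to 0.04). KIF23, the kinesin subunit of the same complex, had 0.02, KIF20A, a midzone kinesin, -0.10, and ECT2, the exchange factor that centralspindlin recruits, -0.02. PRC1, which bundles midzone microtubules, had the highest change of the 40, 0.10 (interval -0.07 to 0.28).

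The proliferation marker genes went different ways. TOP2A, the topoisomerase that untangles sister chromatids, lay at 9.68, 9.95, 9.88 and 9.88 with CRTC1 and at 9.91, 9.96, 9.96 and 10.01 with empty vector. CRTC1 replicate 1 was lowest and CRTC1 replicate 2 lay among the controls, a change of -0.11 (interval -0.30 to 0.08). MKI67, which encodes the Ki-67 antigen that coats mitotic chromosomes, lay at 8.94, 8.93, 9.05 and 8.99 with CRTC1 and at 8.85, 9.02, 8.96 and 8.91 with empty vector. The groups overlapped, and its change was 0.05 (interval -0.12 to 0.22).

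**Figure D3:**
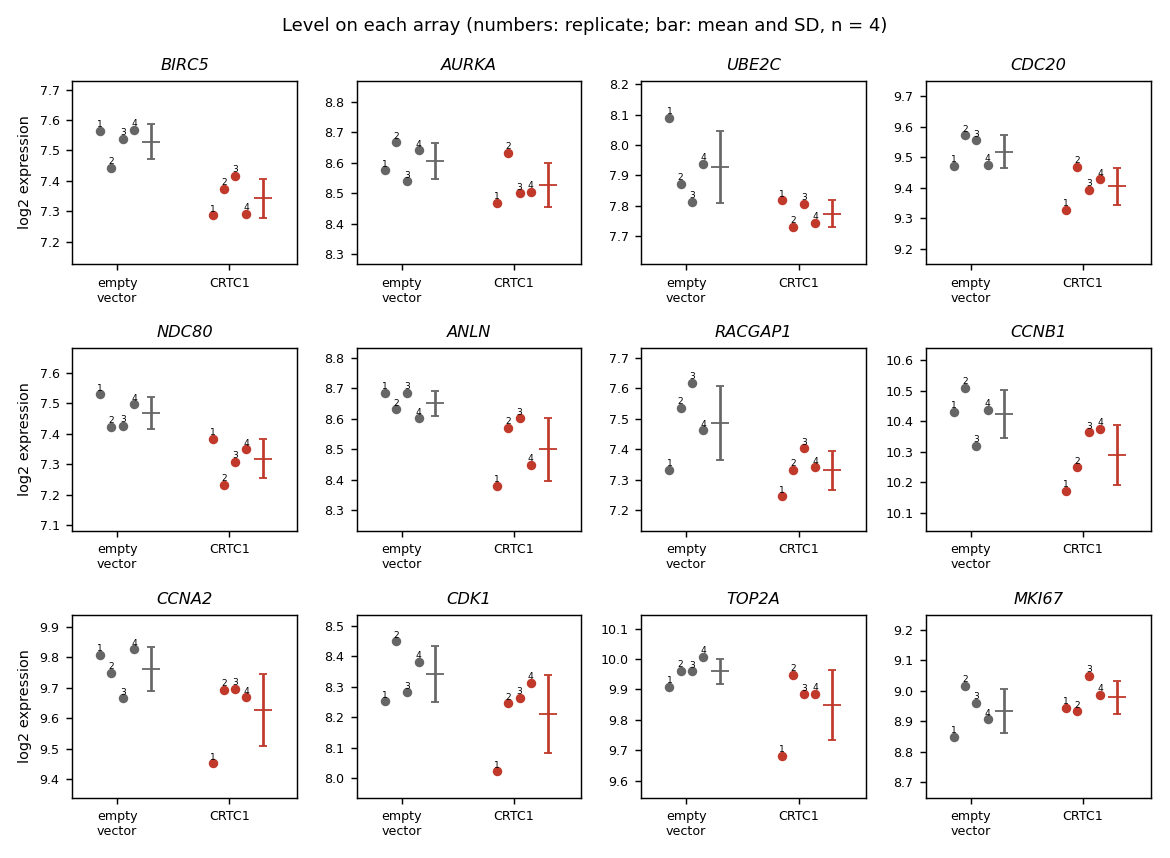
Log2 expression (vertical axis, each panel spanning 0.6) on each array for 12 of the genes, with the replicate number beside each point and the mean and SD of each group (n = 4). The groups of BIRC5, CDC20, NDC80 and ANLN do not overlap, and CRTC1 replicate 1 is the lowest array for CCNB1, CCNA2, CDK1 and TOP2A.

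In 6 of the 40 genes all CRTC1 arrays lay below all controls (BIRC5, BUB3, CDC20, NDC80, KIF4A and ANLN), where 2.06% of all named genes and 2.95% of those at or above the median level did. In 0 of the 40 did all CRTC1 arrays lie above, where 1.68% of all named genes did. The 6 rested on narrow margins: the count was 2 after quantile normalization, where 1.83% of all genes lay wholly below, and 3 after centring each array on its median, where 1.95% did. It was 10 without empty vector replicate 1, where 4.31% did. With a variance trend in limma, which lets bright genes have a smaller expected spread, 7 of the 40 were lower at an unadjusted p of 0.05 (BIRC5, ANLN, NDC80, CCNB1, CDC20, BUB3 and UBE2C), where 3.09% of all genes were, and again 0 passed after adjustment.

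The mean over the 40 genes was 8.1607, 8.2319, 8.2343 and 8.2584 on CRTC1 replicates 1 to 4 and 8.2779, 8.2994, 8.2592 and 8.2953 on empty vector replicates 1 to 4. The groups did not overlap, but CRTC1 replicate 4 and empty vector replicate 3 were only 0.00078 apart, and CRTC1 replicate 1 was lowest by a wide margin. That array was the lowest of its group for 23 of the 40 genes (57.5%), where it was lowest for 29% of all named genes. Without it 29 of the 40 genes were lower and the median change was -0.05. Leaving out empty vector replicate 2 instead also gave 29 lower, with a median of -0.06. The same array had the highest CRTC1 level, 12.52. Its mean over the colon epithelial markers was the lowest, 7.53 against 7.61 to 7.84 on the other arrays. Its mean over the 6 measured cell cycle inhibitor genes was the highest, 7.16 against 6.70 to 6.93. Of the 6, GADD45A (9.97 against 8.40 to 9.37), CDKN2D and CDKN1B were highest on that array, while CDKN1A, CDKN1C and SFN were not. The level of GADD45A fell with the replicate number in both groups. It was 9.97, 9.35, 9.14 and 8.85 with CRTC1 and 9.37, 9.05, 8.74 and 8.40 with empty vector. The part of these values in the mitosis genes was not tested.

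**Figure D4:**
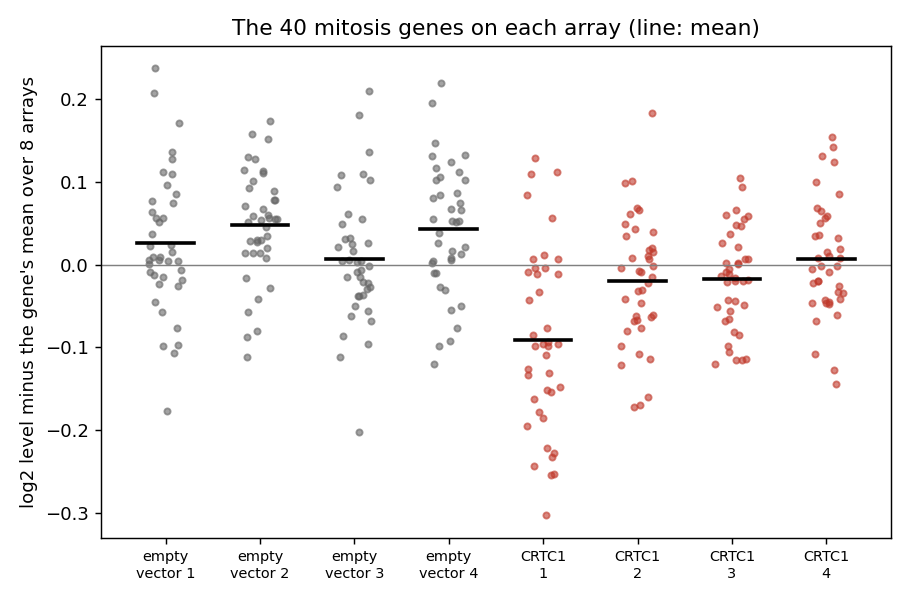
Level of each of the 40 genes (points) on each array, as the difference from the gene's mean over all 8 arrays (vertical axis, log2), with the mean over the genes as a line. CRTC1 replicate 1 lies lowest, and CRTC1 replicate 4 and empty vector replicate 3 lie at nearly the same mean.

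Mitosis genes outside the 40 and transcriptional regulators of such genes were read from 5 further lists, of whose 101 genes 98 had a named probe set. The regulators were 16 of the 98, with 7 lower and 9 higher. Of the 98, 58 were lower and 40 higher (59.2% lower, against 51.4% of all named genes), and the median log2 change was -0.02. At limma's unadjusted p of 0.05, 5 were lower and 2 higher (MIS12 and the regulator NFYC), where 2.73% and 3.2% of all named genes were. After adjustment 0 passed. Other centromere and kinetochore genes were lower in 22 of 30, with a median of -0.04. MIS12, a subunit of the complex that links NDC80 to the centromere, had 0.29, and CENPM, of the constitutive centromere network, -0.18. APC/C subunits and regulators were lower in 12 of 17, among them the APC/C inhibitor FBXO5 at -0.19 and ANAPC11, the catalytic RING subunit, at -0.13. Other genes of mitotic entry, the checkpoint and the centrosome were lower in 8 of 15, with cyclin F (CCNF) at -0.23 and PKMYT1, an inhibitory kinase of CDK1, at -0.20. The other inhibitory kinase, WEE1, had -0.04. Condensin and cohesin genes were lower in 9 of 20, including the condensin subunit NCAPH and the cohesin protector CDCA5, both at -0.14.

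The transcriptional regulators of these genes had no common direction, with 7 of 16 lower. FOXM1, which activates G2 and mitotic genes, had levels of 8.79, 8.71, 8.77 and 8.77 with CRTC1 and 8.88, 8.88, 8.76 and 8.67 with empty vector, overlapping groups with a log2 change of -0.04. MYBL2, the B-MYB partner of MuvB, had -0.13. Of the NF-Y subunits that bind CCAAT, NFYC had 0.36 (limma unadjusted p = 0.0078, adjusted p = 0.837) and NFYA 0.17. None of the 6 measured cell cycle inhibitors passed. CDKN1A, which encodes p21, had 0.02, CDKN1B, which encodes p27, 0.14 and SFN, which encodes the G2 arrest protein 14-3-3 sigma, -0.21. GADD45A had the largest change of the 6, 0.44 (interval -0.15 to 1.03), with overlapping groups.

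DNA replication and G1/S genes, the nearest neighbours in the cell cycle, were lower in 18 of 22, with a median log2 change of -0.08 and 0 past the threshold. That share was 81.8%, against 82.5% of the mitosis genes and 51.4% of all named genes. At limma's unadjusted p of 0.05, 2 were lower and 0 higher, where 2.73% and 3.2% of all named genes were. All CRTC1 arrays lay below all controls in 3 of them (2.06% of all named genes) and above in 0 (1.68%). The difference between the 2 gene sets was not tested. PCNA, the replication clamp, lay at 8.84, 9.06, 9.02 and 9.09 with CRTC1 and at 9.19, 9.24, 9.18 and 9.19 with empty vector, a change of -0.20. MCM7, a subunit of the replicative helicase, had -0.19. The mean over the list was lowest on CRTC1 replicate 1, at 7.98 against 8.06 to 8.15 on the other arrays, as it was for the mitosis genes.

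No marker of other cell types passed after adjustment. Among fibroblast markers 4 of 9 were lower and PDGFRB had 0.42. Among leukocyte markers 3 of 5 were lower and FCER1G had -0.31, and among endothelial markers 2 of 5 were lower and CLDN5 had 0.33. Each of these 3 genes was the 1 member of its list at limma's unadjusted p of 0.05, and each had an adjusted p of 0.837. Over all named genes 5.94% reached that unadjusted p. Of the 9 measured colon epithelial markers 6 were lower, and 0 reached an unadjusted p of 0.05 (lowest 0.292).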

How the data were processed

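Biotin-labelled cDNA was made from total RNA with an Affymetrix whole-transcript kit, per the labels. The authors deposited 1 log2 expression value for each probe set on each array, a scale inferred from the values. The submitters' processing notes name Partek with no role. How the authors corrected background, summarised probes and normalized arrays is not given in the sources read here. Of 23786 probe sets 22458 had 1 symbol in the platform annotation, which can be old; all were updated through Entrez identifiers with RefSeq (GRCh38.p14), and 1328 were unnamed here and left out. No filter on low values was applied.

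Groups came from the sample titles. All 22458 genes were fitted together in limma 3.58.1 (R 4.3.3), on group alone, with empirical Bayes moderation and Benjamini-Hochberg adjustment at a threshold of 0.05. For single genes an exact two-sided permutation test compared 4 with 4 arrays. The fit was tested on simulated data, with changes put into genes drawn from all 22458. At the adjusted threshold it recovered 46.7% of the 1.5-fold changes and 77.4% of the 2-fold changes. Precision is limited by the number of arrays.

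The 40 genes, the other lists and the rule for named genes were chosen with earlier results of these data known. The rule gives values on every array for the 2 genes with the smallest p in each of 7 role groups and for CCNA2, CCNB1, CDK1, BUB1B and MKI67. Of other genes it names CRTC1, FOXM1, MYBL2, CDKN1A, WEE1 and PCNA, the 2 with the smallest p in each cell cycle list and up to 3 markers per marker list. BUB3, KIF4A and GADD45A were also set out by change, array values, range or overlap, chosen after their values were seen. Of the other listed genes 7 had no named probe set. Promoter windows came from RefSeq. Alternatives were a replicate block, other normalization, filters, variance models, array weights, all probe sets, and arrays left out.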

Additional observations from a re-analysis of the deposited data

Results flagged for a closer look

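Of 82 groups of 4 arrays (the 40 genes and their mean, in both vectors), 3 held an array far from the other 3 by Dixon's test, where chance gives about 4. For CCNA2 this was CRTC1 replicate 1, with a level of 9.4522, while the other CRTC1 arrays ranged from 9.6691 to 9.6976. For PLK1 it was CRTC1 replicate 4, at 9.0001 when the rest ranged from 8.9329 to 8.9414. For KIF4A it was CRTC1 replicate 2, at 8.084 when the rest ranged from 8.2524 to 8.2746.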

How the results depend on the processing

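Over 21 alternatives, 0 of the 40 genes passed after adjustment in any fit (lowest adjusted p = 0.652), and all 40 intervals stayed within 1.5-fold in each. Of 840 refitted log2 changes 800 kept their direction, and the 40 that did not came from 13 genes. Genes past the threshold over the whole table numbered 2 with a variance trend and 2 with a trend and robust moderation, where H3C4 joined CRTC1. The count of mitosis genes at an unadjusted p of 0.05 was 0 with the replicate block (7.47% of all genes in that fit), 2 among genes at or above the median level (7.38%), 7 with a variance trend (6.24%), 7 with a trend and robust moderation (6.22%), and 0 to 1 with arrays or replicate numbers left out (4.73% to 6.61%). The p of BIRC5 ran from 0.0122 to 0.144. The number lower ran from 29 to 35 and the median change from -0.0824 to -0.0509 with arrays left out. With quantile normalization 31 were lower, with a median of -0.054, and with median centring 32, with a median of -0.0648. The count wholly below the controls, with alternatives chosen after seeing the data, was 2 with quantile normalization (1.83% of all genes), 3 with median centring (1.95%) and 6 to 10 with arrays left out (3.38% to 4.36%). The causes were not tested. Same-numbered arrays of the 2 groups had deviations that correlated at 0.251, 0.0385, 0.0639 and 0.117 over all genes. Each array correlated best with its own number, a hint from the data and not the design, since the labels state no pairing. The block changed no adjusted call.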
